A study of Homo sapiens with 16 samples.

Results

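H3K27ac, the acetylation of lysine 27 on histone H3 that marks active promoters and enhancers, was measured by ChIP-seq in THP-1 cells, a human acute myeloid leukemia line of monocytic type. There were 4 groups of 2 libraries. WT cells carried Cas9 only, by their genotype label, and the treatment notes describe a control sgRNA; USP18-/- cells carried a CRISPR deletion of USP18 and came from sorted single cells, so that they are clonal, and which clone gave which library was not stated. Each line was either left untreated or given 1000 U/ml of IFNα, with a treatment time of 6 h. The regions described here are 51 of the 151654 windows of 1000 bp in which tags, that is sequenced read ends, were counted at merged ATAC-seq peaks. They were chosen by the measured tags themselves: at most 5 raw tags in each of the 4 untreated libraries and at least 15 raw tags in both IFN treated USP18-/- libraries. The IFN treated WT libraries played no part in the choice and are the readout left free. These regions are called latent here, because H3K27ac was near its floor in untreated cells of either genotype.

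Type I interferons bind a receptor that activates the transcription factor complex ISGF3. ISGF3 binds the interferon-stimulated response element (ISRE), whose core is a pair of GAAA boxes, in the promoters and enhancers of interferon-stimulated genes. USP18 is itself induced by interferon and damps the response at the receptor. An enhancer that gains its marks only on a stimulus is often called latent or de novo. Here the word rests on H3K27ac alone, so windows that carried another enhancer mark at rest cannot be told apart.

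The 8 libraries held between 9046141 and 12935453.5 tags in the windows, and the USP18-/- libraries were the deeper ones. The rule uses raw tags and does not correct for this; on tags scaled to the smallest library it also finds 51 windows, of which 32 are shared. The labelled cell type was read from promoter windows: 6 of 7 myeloid markers had one, from CSF1R at 1.71 CPM (tags per 1000000 of a library size adjusted by TMM factors) to SPI1 at 67.1 CPM in untreated WT cells. MPO had none, nor did CD3E, GATA1, EPCAM or ALB. H3K27ac at the USP18 promoter averaged 7.76 CPM in untreated WT, 16.5 CPM in IFN treated WT, 8.34 CPM in untreated USP18-/- and 45.5 CPM in IFN treated USP18-/- cells, which does not check the deletion, since the mark on a promoter does not show the coding sequence.

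The 51 windows lay at 51 separate loci on 17 chromosomes, each nearest to a different gene, and the closest pair on 1 chromosome was 211254 bp apart. Each window is named here by the nearest transcription start site (TSS) of the deposited annotation, which does not say that it acts on that gene. Reference sequence (hg38) around ISRE core matches is shown first, because matches to these letters set the windows apart from other quiet windows. The ISRE core was searched as GAAANNGAAA on both strands (the other reads TTTCNNTTTC), and the capitals mark the match. The first sequence is from the ICE1 window, annotated as MER41C, a long terminal repeat of an endogenous retrovirus of the ERV1 family, at chr5:5523273-5523454 on the plus strand. It holds 5 ISRE core matches, spaced 36 to 38 bp apart in a tandem repeat, more than any other window here.
ICE1: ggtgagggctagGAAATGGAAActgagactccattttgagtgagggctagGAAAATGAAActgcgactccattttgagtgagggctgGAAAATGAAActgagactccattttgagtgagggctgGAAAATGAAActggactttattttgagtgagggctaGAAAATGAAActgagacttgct

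The sequences below are from windows with high tags after IFN in USP18-/- cells, or near a gene that IFN is known to induce. They lie at chr1:175237518-175237577 (plus strand, LINE L1PBa1), chrX:113743273-113743332 (minus strand, MamGypLTR2b) and chr1:78836872-78836931 (plus strand, no repeat). In the last one, at chr17:68706561-68706620 on the plus strand, the capitals mark the PU.1:IRF composite letters GGAANNGAAA, searched on both strands, which differ from the ISRE core at 1 base and so cannot match at the same place on the same strand.
KIAA0040: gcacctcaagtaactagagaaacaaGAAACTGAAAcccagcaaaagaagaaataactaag
XACT: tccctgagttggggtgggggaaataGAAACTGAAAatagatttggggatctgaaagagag
ADGRL4: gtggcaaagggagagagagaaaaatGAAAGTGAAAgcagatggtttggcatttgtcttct
LINC01482: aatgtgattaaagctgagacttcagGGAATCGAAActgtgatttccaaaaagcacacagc

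An ISRE core was found in the central 200 bp of 27 of the 51 windows (52.9%). The share was 5.84% in the 4692 other windows with at most 5 tags in every untreated library, and 5.43% in all 151654 windows. Median GC content was 39.6% in the latent windows (quartiles 34.1 to 42.4%) and 39.8% in the other quiet ones (35.7 to 46.0%). The median number of CpG dinucleotides per window was 6 and 8. Whether base composition bears on the ISRE core share was not tested. Among 422 other windows called higher with IFN in WT cells the share was 45.3%, and among 8730 other windows called higher with IFN in USP18-/- cells it was 29.0%. The latent windows thus held the core about as often as the windows that responded in WT cells, as counts and with no test.

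The matches also lay close to the window centre, where the ATAC-seq peak was. Of 46 matches in 32 windows, 30 were within 50 bp of the centre and 38 within 100 bp. Over the whole window, the shares were 62.7% in the latent windows and 20.5% in the other quiet windows.

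**Figure D1:**
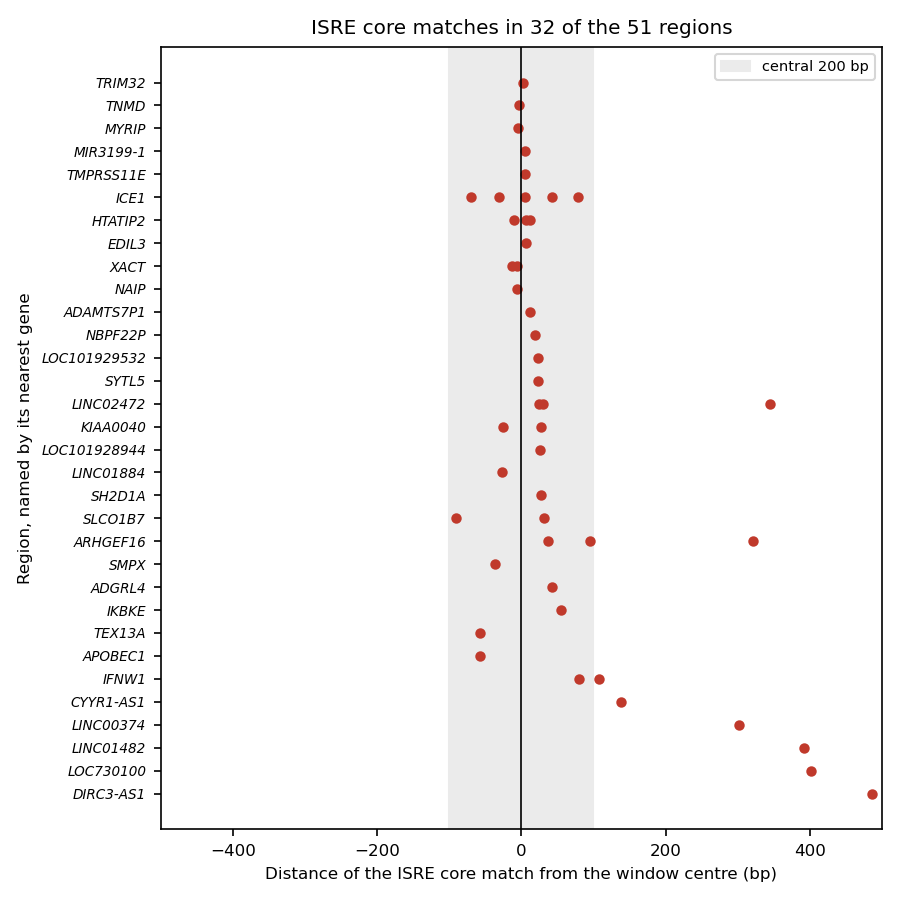
Distance in bp of each ISRE core match from the centre of its 1000 bp window (x axis), 1 row for each of the 32 latent windows with a match (y axis, named by nearest gene); the grey band is the central 200 bp. Of 46 matches, 38 sit within 100 bp of the centre, 5 of them in the ICE1 window.

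The PU.1:IRF composite was found in the central 200 bp of 8 of 51 windows (15.7%), against 5.43% of the other quiet windows. PU.1, the product of SPI1, is a myeloid transcription factor that can bind beside an IRF. Either of the ISRE core and the composite was present in 33 windows (64.7%), against 10.8% of the other quiet windows. LINC01482, RNU105B, NUP35, LINC01209, LOC730100 and ACTA2 had the composite and no ISRE core there, and LINC02472 and TRIM32 had both.

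Other motifs were near the shares of quiet windows. GAS, another interferon-response motif, searched as TTCNNNGAA, was in 5 of 51 windows (9.80%, against 5.99%). The AP-1 letters TGANTCA were in 7 windows (13.7%, against 10.7%). C/EBP was searched as TTGCNNAA, read on both strands, and was in 5 windows (9.80%, against 15.2%). The PU.1 letters GGAAGT, which can overlap the composite and were read on both strands, were in 12 (23.5%, against 21.2%). NF-kB, searched as GGGANTTTCC on both strands, was in 0 of 51, in the central part or the whole window, and in 0.256% of the central parts of the other quiet windows. In 14 windows neither the ISRE core nor the composite was found anywhere in the 1000 bp. They were TLR7, RNF43, GIMAP6, LINC00558, OTOR, SLITRK4, CFAP161, CXorf36, KCTD14, CH25H, MIR138-1, ZPBP, HTR1A and ADAMTS6. A match, or its absence, is a description of these letters and not of binding.

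**Figure D2:**
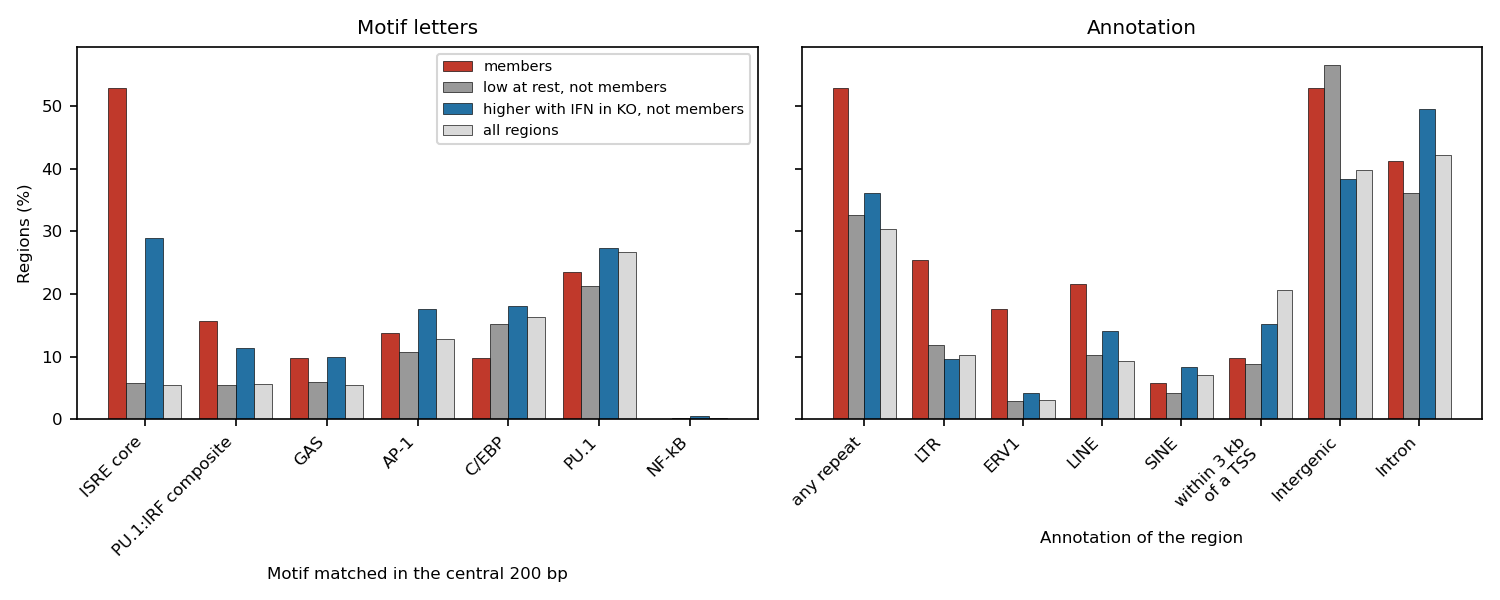
Share of regions in percent (y axis, from 0) with a motif match in the central 200 bp (left) or with an annotation (right), for the 51 latent windows, the 4692 other quiet windows, the 8730 other windows called higher with IFN in USP18-/- cells and all 151654 windows. The ISRE core bar of the latent windows stands at 52.9% and that of the other quiet windows at 5.84%.

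Repeats were annotated at a larger share of the latent windows than of the other sets. They covered 27 of 51 (52.9%), against 32.6% of the other quiet windows and 30.4% of all windows. Long terminal repeats made up 13 (25.5%, against 11.9% of the other quiet windows), LINE elements 11 (21.6%, against 10.3%) and SINE elements 3 (5.88%, against 4.20%). ERV1, the family of LTR71A and MER41, accounted for 9 windows (17.6%, against 3.01%). Of the 27 windows in repeats 17 had an ISRE core in the central 200 bp, as had 10 of the 24 outside.

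The ERV1 windows were GIMAP6 and KCTD14 (both MER57F), ICE1 (MER41C), MIR3199-1, TNMD and NBPF22P (LTR71A), APOBEC1 (HERVP71A-int), ZPBP (HERV15-int) and LOC101929532 (LTR78). Of these 9 windows, 6 had an ISRE core in the central 200 bp. Only 62 of all windows were annotated LTR71A, and 32 of them held an ISRE core there. With IFN in USP18-/- cells, the median level was 3.38 CPM in the 9 ERV1 windows and 2.48 CPM in the others.

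By position, 27 windows were intergenic (52.9%, against 56.6% of the other quiet windows) and 21 were intronic (41.2%, against 36.1%). The remaining 3 were annotated to a 3' UTR of HSF5 (the RNF43 window), to the 5' UTR of IFNW1 and to the promoter of the pseudogene ADAMTS7P1. The median distance to a TSS was 55418 bp, against 48076.5 bp in the other quiet windows and 20667 bp in all windows. Within 3000 bp of a TSS lay 5 windows (9.80%, against 8.87% of the other quiet windows). Chromosome X held 9 (17.6%), as it held 13.6% of the other quiet windows. A count at the end of each window name gives the number of ATAC-seq peak calls merged there. It was 2 or fewer in 33 of 51 windows (64.7%), against 36.3% of the other quiet windows.

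The tags in untreated and in IFN treated USP18-/- libraries chose the windows, so the values below describe them and are not tested. Summed over the 51 windows, the untreated libraries held 142 and 175 tags in WT and 152 and 158.5 in USP18-/- cells. With IFN, the WT libraries held 339 and 303.5, and the USP18-/- libraries 2464.5 and 2155.5. In bulk ChIP-seq, more cells with the mark and more of the mark per cell cannot be told apart. The median window was 9.90 times higher with IFN than without in USP18-/- cells (range 4.04 to 72.2) and 1.79 times higher in WT cells. The 3 windows with most tags, LINC01482, KIAA0040 and TLR7, held 25.6% of the tags of all 51 in the IFN treated USP18-/- libraries.

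**Figure D3:**
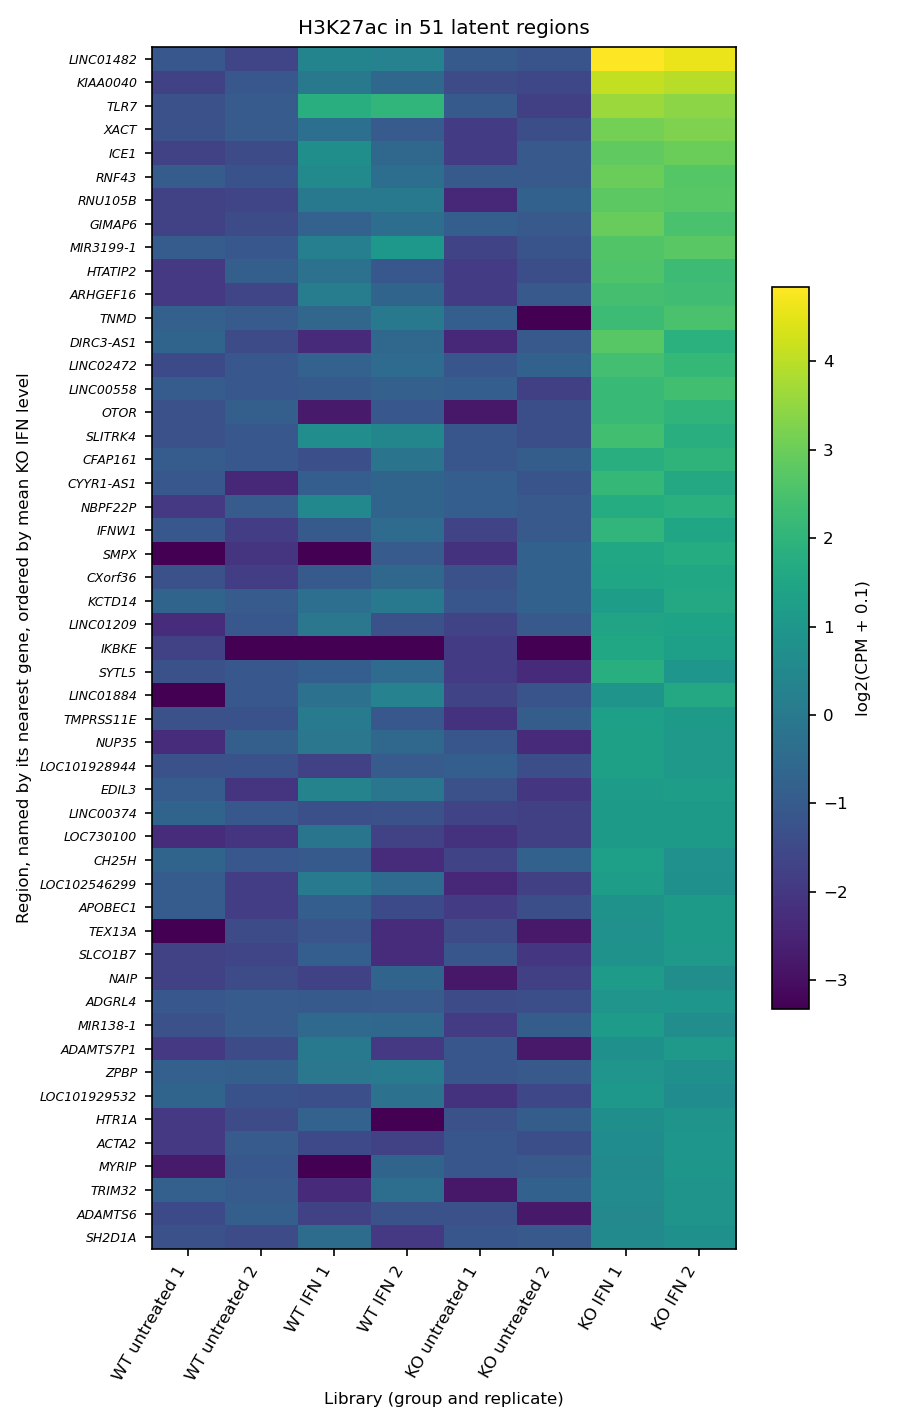
H3K27ac as log2(CPM + 0.1) in the 51 latent windows (rows, named by nearest gene and ordered by the mean of the 2 IFN treated USP18-/- libraries, KO IFN) and the 8 libraries (columns). The 2 KO IFN columns are high by the choice of windows; among the WT IFN columns, the TLR7 row stands out, with 34 and 39.5 tags.

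The strongest window, nearest to the long noncoding RNA gene LINC01482 and in an intron of it by GENCODE, is at chr17:68706018-68707018. It held 3.5 and 2.5 tags in untreated WT, 12 and 11 in IFN treated WT, 4.5 and 3.5 in untreated USP18-/- and 320 and 259.5 in IFN treated USP18-/- libraries. The IFN treated libraries of both genotypes were above all untreated ones, and the USP18-/- level of 26.4 ± 2.90 CPM (SD, n = 2) was 22.7 times that of WT. The nearest protein coding start was that of FAM20A, a Golgi pseudokinase of enamel formation, 105151 bp away.

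The KIAA0040 window (chr1:175237073-175238073) lay 44480 bp upstream of the gene. Its tags were 2 and 4 in untreated WT, 9 and 5.5 in IFN treated WT, 3 and 2.5 in untreated USP18-/- and 188.5 and 165 in IFN treated USP18-/- libraries. The ratio of USP18-/- to WT with IFN was 22.1, close to that of LINC01482. Both IFN treated WT libraries were just above the limit of 5 tags.

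TLR7 encodes the endosomal receptor for single-stranded RNA and lies on chromosome X. The window (chrX:12843594-12844594) was 22989 bp upstream of its start. Tags were 3 and 4.5 in untreated WT, 34 and 39.5 in IFN treated WT, 4.5 and 2 in untreated USP18-/- and 136 and 112 in IFN treated USP18-/- libraries. This was the only latent window with 15 or more tags in both IFN treated WT libraries, and the groups did not overlap. With IFN, USP18-/- was at 11.3 ± 1.12 CPM and WT at 3.72 ± 0.49 CPM (SD, n = 2), a ratio of 3.04. If the same rule is applied to the IFN treated WT libraries in place of the USP18-/- ones, it finds 1 window in the whole table, and it is this one. The WT libraries were shallower, and on scaled tags the same rule finds 2.

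XACT is a long noncoding RNA gene of chromosome X that is known from pluripotent cells. The window, in an exon of XACT by GENCODE, is at chrX:113742815-113743815. It held 3 and 4.5 tags in untreated WT, 7 and 4 in IFN treated WT, 2 and 3 in untreated USP18-/- and 97 and 102 in IFN treated USP18-/- libraries. The WT groups overlapped in raw tags, while in CPM they were just apart (0.410 CPM untreated and 0.412 CPM with IFN at the closest). The ratio of USP18-/- to WT with IFN was 16.4.

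The ICE1 window (chr5:5522859-5523859), whose 5 ISRE core matches are printed above, lay 100686 bp from the start of ICE1, a subunit of the little elongation complex. It held 2 and 3 tags in untreated WT, 16 and 5.5 in IFN treated WT, 2 and 4 in untreated USP18-/- and 79.5 and 84 in IFN treated USP18-/- libraries. The 2 IFN treated WT libraries differed about as much from each other as from the untreated ones.

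The RNF43 window (chr17:58420485-58421485) was 3403 bp upstream of RNF43, which encodes a ubiquitin ligase that lowers Wnt receptors. Tags were 4 and 3.5 in untreated WT, 14 and 6.5 in IFN treated WT, 4.5 and 4 in untreated USP18-/- and 89 and 68 in IFN treated USP18-/- libraries. Next in level was the window named by RNU105B, a small nucleolar RNA gene, which lies in the last intron of PLCB1, a phospholipase C gene (chr20:8792597-8793597). Its tags were 2 and 2.5, 9 and 8.5, 1 and 5, and 75.5 and 68.5, in the same order of groups (untreated WT, IFN treated WT, untreated USP18-/-, IFN treated USP18-/-).

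The GIMAP6 window (chr7:150609947-150610947), 22201 bp from the start of this GTPase gene of the immunity-associated family, held 2 and 3, 5 and 6.5, 5 and 4, and 86 and 58.5 tags. The MIR3199-1 window, in an LTR71A repeat, had 4 and 4, 10.5 and 19, 2.5 and 3.5, and 67.5 and 70.5 tags. It was the second highest in IFN treated WT cells, and the ratio of USP18-/- to WT with IFN was 4.21. The HTATIP2 window (chr11:20360347-20361347), 2838 bp upstream of that oxidoreductase gene and in an MLT1J repeat, had 1.5 and 5, 7.5 and 3.5, 2 and 3, and 66 and 50.5 tags. Its WT groups overlapped.

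The remaining windows with a high level in IFN treated USP18-/- cells were ARHGEF16, TNMD, DIRC3-AS1, LINC02472, LINC00558, OTOR and SLITRK4, with means of 4.20 to 5.16 CPM. The TNMD window, also in an LTR71A repeat, had 4.5 and 4.5, 5.5 and 8.5, 5 and 0, and 53 and 59 tags. The median latent window was at 2.60 CPM with IFN in USP18-/- cells, and the lowest, SH2D1A, at 1.49 CPM.

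How the windows behaved in IFN treated WT cells was left free by the rule. In both IFN treated WT libraries 16 of 51 windows (31.4%) held more than 5 tags, in 1 of the 2 libraries 18, and in neither 17 (33.3%). Of the 4692 other quiet windows, 8.93% were above 5 tags in both and 59.7% in neither. Both WT IFN libraries were above both untreated WT libraries, in CPM, in 27 of 51 latent windows (52.9%), against 29.5% of the other quiet windows and 18.6% of all 123276 windows tested. The reverse was seen in 1 latent window (1.96%), against 9.40% of the other quiet windows. Mean tags in untreated WT cells were 2.78 and 3.43 per latent window and 2.58 and 2.80 per other quiet window.

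All 51 windows passed the filter on low counts, which their USP18-/- libraries ensured, and the effect of IFN in WT cells was taken from the edgeR fit over all 123276 windows that passed it. Only TLR7 was called higher (log2 fold change over 1 and adjusted p under 0.05), and none lower. The background was 0.343% of all windows tested, or 423 windows. The TLR7 window had a log2 fold change of 3.42 ± 0.44 (SE) with an adjusted p of 2.67e-08 (edgeR). The untreated WT libraries were capped by the rule, so the fold change is only partly independent of it.

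Most of the 51 windows leaned upward in WT cells, and 50 of them were not called. The log2 fold change was above 0 in 42 of 51, and the median was 0.82. The limit of 5 tags in the untreated libraries favours such a lean. Over all windows tested the median was -0.01, but that limit was not set for them. Nothing is therefore read from the gap between these medians. Before adjustment, 12 of 51 windows had p under 0.05 (edgeR) and were higher, and 0 were lower. Of the 152 other quiet windows tested, 37 were higher and 0 lower by the same measure. Those windows passed the count filter only through IFN treated libraries of either genotype, so they are not a free background. Nothing particular to the latent windows is read from the 12. Mean CPM was higher with IFN in 82.4% of the latent windows and in 69.5% of the other quiet windows, which were held low in the untreated libraries by the same limit. On simulated counts, a 4-fold change was recovered in 169 of 200 windows drawn over all levels, and in 87 of 87 with a mean count of 30 or more. Smaller changes, or windows at the low WT level of the latent ones alone, were not simulated.

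**Figure D4:**
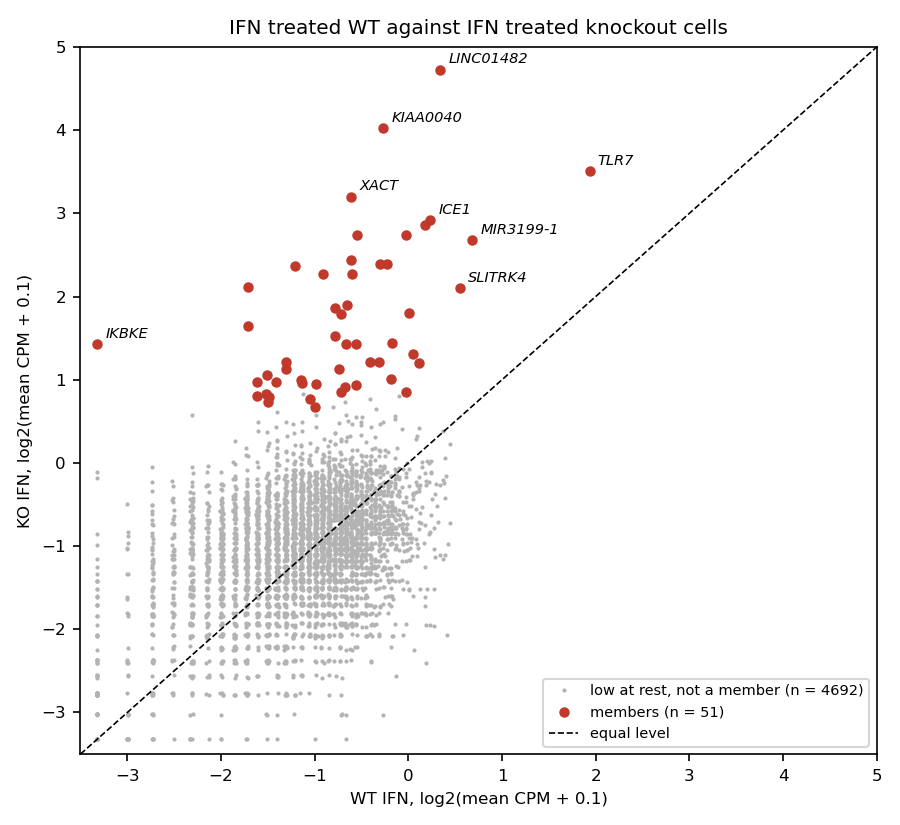
Mean level with IFN in WT (x axis) and in USP18-/- cells (y axis, KO IFN), both as log2(CPM + 0.1), of the 51 latent windows (red) and the 4692 other quiet windows (grey); the dashed line marks equal levels. All red points lie above the line, as the choice of windows favours; TLR7 lies furthest to the right, and IKBKE, with 0 tags in both WT IFN libraries, at the left edge.

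After TLR7 and MIR3199-1, the windows with the highest WT IFN levels were SLITRK4, LINC01482, ICE1, RNF43, EDIL3, LINC01884, NBPF22P and ZPBP. SLITRK4 encodes a neuronal membrane protein, and its window (chrX:143597001-143598001) held 3 and 4, 15 and 12, 4 and 3, and 57 and 35.5 tags. EDIL3 encodes an extracellular matrix protein, and the window in its first intron (chr5:84338157-84339157) held 4 and 1.5, 11.5 and 8, 3.5 and 1.5, and 24.5 and 23.5 tags. In both, the IFN treated WT libraries were above the untreated ones. Their ratios of USP18-/- to WT with IFN, 3.08 and 2.23, were among the smaller ones.

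The LINC01884 window (chr2:22830708-22831708) held 0 and 4, 7.5 and 11, 2.5 and 3.5, and 20 and 31.5 tags, with a ratio of 2.52. The NBPF22P window (chr5:85647463-85648463), also in an LTR71A repeat, held 1.5 and 4.5, 13 and 5, 5 and 4, and 36.5 and 37.5 tags. The ZPBP window (chr7:50069269-50070269), in an intron of this sperm protein gene, held 4.5 and 5, 8.5 and 9, 4 and 4, and 20.5 and 17 tags. Its ratio of 1.93 was the smallest of all. Of these 10 windows, only TLR7 passed the test in WT cells; MIR3199-1 came next, with a log2 fold change of 1.89 ± 0.54 (SE) and an adjusted p of 0.0772 (edgeR), and SLITRK4 had 1.97 ± 0.57 and 0.0849.

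**Figure D5:**
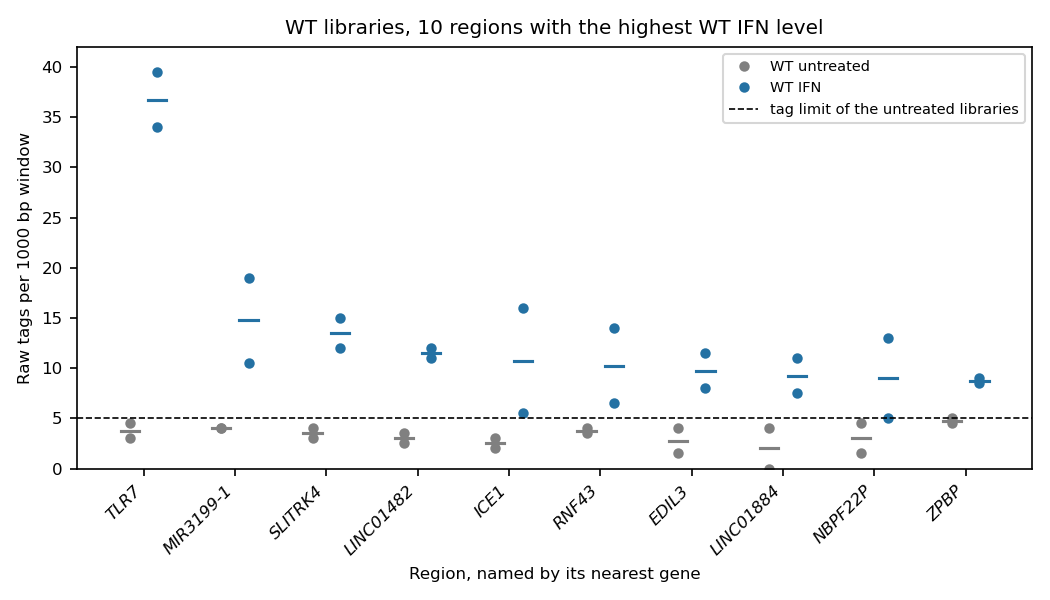
Raw tags per 1000 bp window (y axis, from 0) in the 2 untreated (grey) and 2 IFN treated (blue) WT libraries for the 10 latent windows with the highest WT IFN level (x axis); each point is a library, short lines are means and the dashed line is the limit of 5 tags. TLR7 stands at 34 and 39.5 tags, and the next window, MIR3199-1, at 10.5 and 19.

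At the other end, 17 windows stayed at or under 5 tags in both IFN treated WT libraries. The 6 with the highest USP18-/- levels were LINC00558, OTOR, CYYR1-AS1, SMPX, IKBKE and LOC101928944. The LINC00558 window (chr13:53490520-53491520) held 4 and 4, 4 and 4.5, 5 and 2, and 49.5 and 53.5 tags, so that WT cells were level with and without IFN. OTOR encodes a secreted protein of the inner ear, and its window (chr20:16863744-16864744) held 3 and 5, 0.5 and 3.5, 0.5 and 3, and 51 and 42 tags. The ratio of USP18-/- to WT with IFN was 20.7 there, the third highest of the 50 that could be computed; IKBKE has only a bound.

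The CYYR1-AS1 window (chr21:26397273-26398273) held 3.5 and 1, 4.5 and 5, 5 and 3.5, and 47 and 31 tags. The SMPX window (chrX:21781222-21782222), near a gene of striated muscle, held 0 and 1.5, 0 and 4, 1.5 and 5, and 31.5 and 34.5 tags. The LOC101928944 window (chr11:80414513-80415513) held 3 and 3.5, 2 and 4, 5 and 3, and 27 and 21.5 tags. Of the 17 windows, 9 had an ISRE core in the central 200 bp, a share like that of all 51. The other 11 windows in this class were LINC00374, CH25H, APOBEC1, TEX13A, SLCO1B7, HTR1A, ACTA2, MYRIP, NAIP, ADGRL4 and ADAMTS6.

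The window named by IKBKE, which encodes an antiviral kinase, is in fact in an intron of SRGAP2, 112107 bp from the IKBKE start (chr1:206357636-206358636). It held 2 and 0 tags in untreated WT, 0 and 0 in IFN treated WT, 2 and 0 in untreated USP18-/- and 32 and 25 in IFN treated USP18-/- libraries. With 3 counts over the group as the floor, it was at least 17.2-fold higher in USP18-/- than in WT cells with IFN. Of its 32-base stretches, 87.5% occur more than once in hg38, as do 86.7% in the NAIP window, so reads there could be placed at a near copy; the part of this in the values was not tested. The share was above 10% in 15 of 51 windows, and the median was 0.

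Over the 50 windows with tags in IFN treated WT cells, the ratio of USP18-/- to WT with IFN had a median of 6.48 and ran from 1.93 to 22.7; with IKBKE at its bound the median was 6.63. It was 10 or more in 8 windows and under 3 in 4. Across the 51 windows, Spearman's rho between the WT and the USP18-/- level with IFN was 0.53, as a description, since the windows share libraries and the choice cut off low USP18-/- levels. Windows with an ISRE core in the central 200 bp had a median of 2.37 CPM with IFN in USP18-/- cells, and those without it 2.70 CPM. In WT cells with IFN these medians were 0.52 and 0.56 CPM. The core was thus no more frequent at the top of the list: 9 of the 20 windows with the highest USP18-/- levels had it, and 11 of the 20 with the lowest.

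The 5 windows within 3000 bp of a TSS were HTATIP2, IFNW1, KCTD14, ADAMTS7P1 and ADAMTS6. IFNW1 encodes interferon omega, a type I interferon, and its window (chr9:21141108-21142108) covers the start of the gene. It held 3.5 and 2, 4 and 6, 2.5 and 4, and 45 and 29 tags. The nearby IFNB1, which encodes interferon beta, starts 63666 bp away.

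KCTD14 encodes a potassium channel tetramerization domain protein. The window (chr11:78024101-78025101), 1327 bp upstream of a start in the deposited annotation, held 5 and 4.5, 7 and 8.5, 4 and 5, and 25.5 and 31.5 tags. At ADAMTS7P1 (chr15:82292020-82293020) the tags were 1.5 and 3, 9 and 1.5, 4 and 0.5, and 18 and 21. ADAMTS6, a metalloproteinase gene, had its window at chr5:65483413-65484413, 1993 bp upstream, with 2.5 and 5, 2 and 3, 3.5 and 0.5, and 15 and 19 tags. None of the 5 was called in WT cells.

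The 10 gene lists used here covered antiviral effectors, interferon signalling, guanylate binding proteins, cytokines, NF-kB, cell death, antigen presentation, checkpoint and surface genes, atypical interferon-stimulated genes and, as a comparison list, ribosomal protein genes. Of their 285 genes in the table, 0 were the nearest gene of a latent window, as named by the deposited annotation. Over all 24177 genes in the table, 51 were. At so small a share a count of 0 says nothing about the list genes. The lists also leave out IFNW1, TLR7, IKBKE and CH25H, which do name latent windows. By GENCODE coordinates, 3 list genes started within 100000 bp of a latent window, namely FAS (8797 bp), IFNB1 and CD163 (97705 bp). The distance for FAS is to the start of its GENCODE gene record, and the FAS promoter window tested below lies 45812 bp away. Within 250000 bp there were 9 of the 293 genes on all 10 lists, which added IFIT2 (127424 bp), IFIT3, IFI44 (187063 bp), IFIH1 (199887 bp), IFI44L and IFIT1. Over all 20018 protein coding genes, 0.315% lay within 100000 bp and 0.874% within 250000 bp. The list genes near a latent window share it in the IFIT and IFI44 clusters and so are not separate cases.

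The windows behind these distances were of low to middle level. CH25H encodes cholesterol 25-hydroxylase, an antiviral enzyme, and the window 51044 bp from its start (chr10:89155770-89156770) is the one nearest to the IFIT cluster. It held 5 and 4, 4 and 1, 2.5 and 5, and 26 and 17.5 tags, with WT cells at no higher a level with IFN. The ADGRL4 window (chr1:78836359-78837359), nearest to IFI44 and IFI44L among protein coding starts, held 3.5 and 4.5, 4 and 4, 3 and 3, and 20.5 and 19.5 tags. The window near FAS, which encodes a death receptor, is named by ACTA2 and lies in introns of ACTA2 and STAMBPL1 (chr10:88944516-88945516). It held 1.5 and 4.5, 2.5 and 2, 4 and 3, and 16.5 and 19.5 tags.

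As a yardstick, promoter windows of the antiviral effector list were called higher with IFN in 36 of 57 cases in WT and 53 of 57 in USP18-/- cells, with 0 lower in either by edgeR, by DESeq2 or at an unadjusted p under 0.05. Receptor, signalling and feedback genes gave 5 and 14 of 26, and checkpoint and surface genes 1 and 5 of 14. In 5 lists no promoter was called higher in WT cells by edgeR or DESeq2, while the USP18-/- counts were 6 of 8 guanylate binding proteins, 14 of 33 chemokines and cytokines, 12 of 35 cell death genes, 12 of 28 antigen presentation genes and 1 of 3 atypical interferon-stimulated genes. At an unadjusted p under 0.05 the WT counts of these lists were 0, 5, 9, 12 and 1. The study chose the atypical genes by RNA of these cell lines, as induced by IFN in USP18-/- and not in WT cells. Nothing is read from the counts of that list. Lower calls (edgeR) were 1 cell death gene in each genotype and 1 antigen presentation gene in USP18-/- cells. The 27 genes of the NF-kB list had 0 calls in either genotype by edgeR or DESeq2, with 2 higher in WT and 17 in USP18-/- cells at an unadjusted p under 0.05, and the 21 ribosomal protein genes had 0 calls, with 0 and 9.

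Promoter windows more than 5000 bp from any latent window were not used by the rule. For these, genes were counted as nearest either by the deposited annotation or as the nearest protein coding start in GENCODE. The second way adds IFI44 (for the ADGRL4 window), FAS (for the ACTA2 window), MAT2B, IL16, TENM4, TBL1XR1, COX7C and FAM20A. Some of these promoters are far away, with MAT2B at 1110254 bp from its latent window. The promoter windows of FAS and ACTA2 lie 45812 and 46334 bp from the ACTA2 latent window. Of 78 gene names, 18 had such a window that could be tested. In WT cells 1 of 18 was called higher with IFN, against 0.455% of the promoters of all 14276 genes tested, and in USP18-/- cells 4 of 18, against 3.66%. The USP18-/- contrast is from the libraries that chose the latent windows, so nothing is read from its count. The WT call was IFI44, an antiviral gene, whose log2 fold changes were 2.59 ± 0.33 for WT and 5.05 ± 0.26 for USP18-/- cells (SE); the other USP18-/- calls were FAS (1.15 ± 0.25), ACTA2 (1.13 ± 0.25) and MAT2B (1.07 ± 0.12), of which FAS and ACTA2 have promoter windows that overlap. Without the first untreated USP18-/- library, MAT2B (0.95) and ACTA2 (0.91) fell under the fold limit and 2 of 18 were called.

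The IFI44 promoter was at 0.83 and 0.86 CPM in untreated WT, 5.81 and 4.84 CPM in IFN treated WT, 0.79 and 0.53 CPM in untreated USP18-/- and 22.3 and 24.1 CPM in IFN treated USP18-/- libraries. The groups with IFN did not overlap those without it. At IKBKE, the promoter, 112347 bp from the latent window, changed with IFN by 0.72 ± 0.12 (log2, SE) in USP18-/- cells, with 0.00 ± 0.13 in WT cells. At ICE1 these were 0.56 ± 0.12 and -0.01 ± 0.13, and at SLITRK4 0.70 ± 0.15 and 0.25 ± 0.19. These 3 passed an adjusted p of 0.05 in USP18-/- cells (edgeR) but not the fold limit, as did ARHGEF16 and IL16, which were lower (-0.73 ± 0.21 and -0.82 ± 0.29). The promoters of KIAA0040 (0.39 ± 0.41 in USP18-/- cells), GIMAP6 (0.11 ± 0.20) and FAM20A (0.07 ± 0.60) did not pass the test.

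Around the latent windows, 13 other tested windows had their centre within 5000 bp without overlapping them. In USP18-/- cells 5 of the 13 were called higher with IFN, against 7.12% of all windows tested, and in WT cells 0 by edgeR or DESeq2, with 0 at an unadjusted p under 0.05. The 5 were neighbours of XACT (log2 fold changes of 4.26 ± 0.39 and 3.23 ± 0.25, SE), CXorf36 (4.18 ± 0.28), CFAP161 (3.09 ± 0.72) and TNMD (2.83 ± 0.46), and their WT log2 fold changes lay between -0.14 and 0.74. The USP18-/- libraries are those that chose the latent windows, so the USP18-/- counts at all distances are descriptions only. At 5000 to 20000 bp, 5 of 30 windows (16.7%) were called higher in USP18-/- cells, at 20000 to 100000 bp 39 of 206 (18.9%) and at 100000 to 500000 bp 111 of 1217 (9.12%). In WT cells the counts were 0, 0 and 23 (1.89%) at these distances by edgeR and 0, 0 and 21 by DESeq2, and at an unadjusted p under 0.05 they were 2, 18 and 81 higher and 2, 4 and 47 lower. DESeq2 gave an adjusted p to only 44405 windows of the table. The median USP18-/- log2 fold change was 0.42 within 5000 bp, 0.03 at 5000 to 20000 bp, 0.37 at 20000 to 100000 bp and -0.04 at 100000 to 500000 bp, so it did not fall steadily with distance.

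The limits of the rule cut through a continuum. The members just inside were ADAMTS6 (15 and 19 tags in the IFN treated USP18-/- libraries), MYRIP (15.5 and 20) and SH2D1A (15.5 and 17). Just outside were windows near CDH9 (14.5 and 19.5), SLC9A9 (14.5 and 18) and FAM126A (14.5 and 16). On the side of the untreated tags, 21 of 51 windows had a highest untreated count of exactly 5, and 292 windows with enough tags in USP18-/- cells had a highest untreated count above 5 and up to 8. The strongest ones just past it were near LINC02500, with 5.5 tags in 1 untreated WT library and 78.5 and 86 tags in the IFN treated USP18-/- libraries, DCDC1 (67.5 and 75) and GRIA1 (47.5 and 44.5).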

How the data were processed

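H3K27ac ChIP-seq libraries of WT and USP18-/- THP-1 cells were used; the 8 input libraries were not analysed here. Reads were mapped by the authors to hg38 with Bowtie2, and tags were counted with HOMER in windows of 1000 bp around merged peaks from ATAC-seq. The authors deposited raw HOMER tags, fractional in part and not normalized, treated here like expected counts. A total of 0 value columns were left unmapped to samples. Samples were grouped by their GEO titles.

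Tags were rounded to whole counts. Windows with at least 10 counts in at least 2 libraries (123276) were fitted across all regions with edgeR 4.0.16 (limma 3.58.1, R 4.3.3), TMM scaling, 1 mean per group and the quasi-likelihood test with Benjamini-Hochberg adjustment; a window was called at an adjusted p under 0.05 with a log2 fold change beyond 1 either way. The biological coefficient of variation (common dispersion) was 0.0747. The script was tested on simulated data, with 6 false calls. CPM used TMM-adjusted library sizes. P-values measure the spread between 2 libraries per group. Counting error limits windows with few tags.

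Annotation and repeats are those of the deposited table; overlaps and coding starts came from GENCODE 44, and sequences and motifs from the hg38 reference, with Python 3.11.15. The members, gene lists and tests were chosen with earlier results of these data known. Windows were named by rule: the 10 highest in USP18-/- and in WT cells with IFN, the 6 highest among those at or under 5 tags in WT, up to 4 per gene list, 6 near a TSS and 3 on each side of a limit; each gene was nearest to only 1 window. Windows near list genes, neighbours and windows named for a motif or a repeat were added after their values were seen. Alternatives were other scalings, filters, DESeq2 1.42.0, a replicate block, single libraries left out and other member rules.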

Additional observations from a re-analysis of the deposited data

Results flagged for a closer look

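At 5 of 18 promoters of genes nearest to latent windows, by the deposited annotation or by coding starts, the IFN effect differed between USP18-/- and WT cells in the contrast of the edgeR fit that tests the difference itself. The difference (USP18-/- minus WT) in log2 fold change was 2.46 ± 0.55 (SE) at IFI44 with an adjusted p of 6.02e-04 (edgeR), 1.22 ± 0.39 at FAS (0.0232), 1.12 ± 0.19 at MAT2B (5.00e-06), 0.72 ± 0.18 at IKBKE (0.00191) and 0.57 ± 0.18 at ICE1 (0.0196). The ICE1 difference lost its call without TMM factors (0.44, adjusted p 0.0891). Over all genes, 1794 of 14276 promoters had an adjusted p under 0.05 in the same contrast. At each of the 5 named promoters the IFN effect was larger in USP18-/- cells. Over all genes, 367 promoters were called higher and 155 lower in this contrast with the fold limit added. The libraries are those that chose the latent windows, and the MAT2B start lies 1113009 bp from its window, so nearness and a shared response cannot be told apart here.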

How the results depend on the processing

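The call of the TLR7 window in WT cells held in the 15 refits by edgeR, with log2 fold changes of 3.27 to 3.56. DESeq2 gave an adjusted p to 2 of the 51 latent windows and called 0 of them; its log2 fold change for TLR7 was 3.47 ± 0.65 (SE), with the adjusted p not given. The count of called windows was 1 in WT cells with the replicate block, and ranged from 1 to 2 when single libraries were left out. The second was ICE1 without the second IFN treated WT library (log2 fold change 2.66, edgeR adjusted p 0.0448). The unrounded tags, chosen after seeing the data, also gave 1. The rule on scaled tags gave 2 called windows (TLR7 and LINC02500), and the rule of at most 3 tags gave 0.

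The number of latent windows was 33 with at least 20 tags in USP18-/- cells and 4 with at most 3 untreated tags. Mean WT IFN tags per window, 6.30 ± 0.49 (SD, n = 2), became 7.44 under the rule on scaled tags, 7.50 with at least 20 tags and 2.69 with at most 3. The promoters called higher in USP18-/- cells ranged from 2 to 4 when single libraries were left out, and the 1 called in WT cells was called throughout, also with the replicate block (1 in WT and 4 in USP18-/- cells). The ICE1 promoter difference was 0.44 without TMM factors (adjusted p 0.0891, edgeR). The replicate numbers did not pair the libraries (correlations of deviations of 0.01 in WT and 0.05 in USP18-/- cells), and the block changed no call. The ISRE core share in the central 200 bp was 55.1% with 1 window per chain of overlapping windows and 48.5% with at least 20 tags. In the whole window it was 62.7%, where the other quiet windows had 20.5%. The share was not computed for the rule on scaled tags or the rule of at most 3 tags.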

Other observations

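Windows in some of the repeats that hold latent windows were also called outside them. LTR71A, MER57F and MER41 were chosen after their values were seen, and the background of calls in USP18-/- cells was 7.12% of all windows tested. Of 3 tested MER41C windows, 1, the latent ICE1 window, was called higher in USP18-/- cells. The rule chose that window by its high tags in these libraries, so nothing is read from its call. The same holds for the latent windows within the LTR71A and MER57F counts in USP18-/- cells. Of 58 tested LTR71A windows, the 3 latent ones included, 45 were called higher with IFN in USP18-/- cells and 10 in WT cells by edgeR, with median log2 fold changes of 2.80 and 0.71. Of 22 tested MER57F windows, the 2 latent ones included, 17 were called higher in USP18-/- and 1 in WT cells, with medians of 2.78 and 0.50, while 2 of all 23 held an ISRE core in the central 200 bp. Of 141 tested MER41B windows, none of them latent, 42 were called higher in USP18-/- cells and 0 in WT cells by edgeR, with 8 higher and 4 lower in WT cells at an unadjusted p under 0.05 and 0 called by DESeq2, which gave many windows no adjusted p. Their median log2 fold changes were 0.58 in USP18-/- and 0.0018 in WT cells. Copies of a repeat share sequence, and the part of misplaced reads in these counts was not tested.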
